A study of Mus musculus with 6 samples.

Results

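The 9 noncoding genes described here were 7 hosts of small nucleolar RNAs (snoRNAs), namely Gas5, Snhg1, Snhg3, Snhg5, Snhg6, Snhg8 and Snhg12, and 2 long RNAs that stay in the nucleus, Malat1 and Neat1. They were taken by gene symbol from the 26216 gene names measured, each symbol occurred once, and all 9 lay in the upper 50% of names by mean signal that was tested (13108 names). RNA was sequenced from long-term and short-term hematopoietic stem cells (LT/ST-HSCs) purified by cell sorting from mixed bone marrow chimeras at week 6, with 3 samples of Ltbr-/- cells and 3 of Ly5.1 cells. In these chimeras, stem and progenitor cells (LSKs) of Ltbr-/- donors, which carry Ly5.2 and lack the lymphotoxin β receptor, and congenic Ly5.1 donors with an intact receptor were given together to Ly5.1/Ly5.2 recipients after lethal irradiation, so that both genotypes developed in the same hosts. Chimeras were pooled into the samples. Donors of the Ltbr-/- samples were 13, 10 and 10 to 13 weeks old in replicates 1 to 3, and donors of all Ly5.1 samples 7 to 13 weeks. The deletion is carried from birth by every cell of its donors, and the genotypes also differ in the congenic region of the Ly5.1 strain around Ptprc on chromosome 1, which lies 22.9 Mb from Gas5. The comparison asks which RNAs differ in stem cells that lack the receptor.

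A snoRNA host gene is transcribed as a spliced RNA whose introns are trimmed into snoRNAs, which guide methylation and pseudouridylation of ribosomal RNA, while the joined exons leave the nucleus. Many hosts start with a terminal oligopyrimidine (TOP) tract, a C at the first base followed by a run of C and T, as do the mRNAs of ribosomal proteins and elongation factors; the exons hold only short reading frames, and translation exposes several host RNAs to nonsense-mediated decay. Malat1 sits in nuclear speckles, where splicing factors are stored, and Neat1 is the scaffold of paraspeckles, nuclear bodies that hold RNA-binding proteins.

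The sequences around the annotated starts show how far the hosts share such a tract. Each line holds 30 bases in the direction of transcription, 15 before the start and 15 from it on, read from RefSeq (GRCm38.p6), and capitals mark the longest run that opens with C and holds only C and T. The windows, in the order shown, lie at chr1:161034586-161034615 and chr1:161035151-161035180 (both plus strand), chr19:8723472-8723501 (plus), chr4:132353672-132353701 (minus), chr9:88522883-88522912 (minus), chr3:123508322-123508351 (minus), chr4:132308663-132308692 (plus) and chr19:5802658-5802687 (minus).
Gas5, start 1: agggggcgggCCCgcgagctcgacagcccg
Gas5, start 2: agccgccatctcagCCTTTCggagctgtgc
Snhg1: gttgttcttgtcggCCTCatttttccttgt
Snhg3: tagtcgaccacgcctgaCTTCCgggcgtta
Snhg5: gagctgcggtgaaccgggctcgttCTTTTa
Snhg8: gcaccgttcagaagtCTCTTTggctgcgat
Snhg12: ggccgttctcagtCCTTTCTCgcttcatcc
Malat1: CTCCgggctctgcgtcaggcattcaggcag
Snhg6 and Neat1 were not in the table of starts. A run of at least 5 such bases, searched on the transcribed strand only, was found in this window in 5 of the 6 hosts listed, at any of their starts, and not in Malat1. Over all 27025 genes with a listed start the share was 40.3%, and among ribosomal protein genes it was 65.5% (38 of 58). The run opened on the annotated first base in Snhg8 (6 bases), 1 base before it at the second start of Gas5 (6 bases), and 2 bases before it in Snhg12 (8 bases). In Snhg3 it opened on base 3 (5 bases) and in Snhg5 on base 10 (5 bases), while that of Snhg1, 1 base before the start, held 4. These are matches of letters and not mapped start sites.

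The targeted gene followed the labels: the Ltbr signal was 24.2, 26.4 and 23.1 in the Ltbr-/- samples and 564, 549 and 522 in the Ly5.1 samples. The deposited values were taken to be regularized log values raised as a power of 2, from the study's methods and the values themselves. On that reading size factors are already applied and low genes are drawn towards their mean. The values then hold no read depth, and no precision could be derived from it. Median log2 signal was 8.46 to 8.47 in the 6 samples. All 12 stem cell markers were detected; 4 passed the limma test without reaching 1.5-fold (3 lower, of which Ly6a at -0.39 had the largest difference, and Gata2 higher in Ltbr-/-), and their summed signal was 21170 to 21630 in Ltbr-/- and 22510 to 23520 in Ly5.1 samples. Markers of other cells differed between the genotypes. The summed signal of 9 neutrophil markers was 42920 to 43440 in Ltbr-/- and 56260 to 60690 in Ly5.1 samples, and all 9 were lower in Ltbr-/- with adjusted p under 0.05, by less than 1.5-fold each (Camp -0.57), while 6 were called lower under quantile normalization. Summed mast cell and basophil markers were 7793 to 8351 and 4325 to 4956, with Tpsb2 at 1, the lowest value in the files, in every sample. The corresponding sums were 4148 to 4433 and 2850 to 3215 for erythroid markers and 2553 to 2848 and 2022 to 2251 for macrophage markers. In each of these lists 1 gene was called higher, namely Cma1 (1.32 on the log2 scale), Hba-a1 (0.99) and Adgre1 (0.83, listed as Emr1), and these genes hold much of the sums. The mast cell marker Cpa3 (0.56, limma adjusted p = 1.44e-05) and the macrophage marker Cd68 (0.28, limma adjusted p = 0.0353) were higher by adjusted p alone. Not all markers followed: 4 of 7 tested mast cell and basophil markers lay below 0 (median -0.04), among them Prss34 (-0.41, limma adjusted p = 0.0033). So did 4 of 6 macrophage markers (median -0.07), and the erythroid Hbb-b1 had 0.04. B cell and plasma cell markers summed to 1457 to 1586 and 2316 to 2478, while Igkc (-1.21) and Ighm (-1.04) were called lower and Cd79a (0.62) higher, and Ms4a1, Pax5 and Ebf1 were among the markers too low to be tested. The part of other cells, of donor age and of the congenic region in the results that follow was not tested, and in such sorted bulk samples fewer cells of a type and less RNA per cell cannot be told apart.

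Of the 9 genes, 3 were called higher in Ltbr-/- LT/ST-HSCs, Neat1, Snhg8 and Snhg6, and none was called lower by limma. At an unadjusted p under 0.05, 8 of the 9 were higher and 0 lower, against 15.7% and 11.4% of all tested names. A gene was called at a Benjamini-Hochberg adjusted p under 0.05 in limma and a fold of at least 1.5, and 2.72% of all tested names were called higher, 0.061% lower and 2.78% in either direction. In the upper 25% of tested names by mean signal, to which all of the 9 but Snhg3 belong, 8.76% were called higher. With the adjusted p alone, 6 of the 9 were higher, against 10.6% of all tested names and 22.6% of those upper 25%. Signals of the groups did not overlap, with all Ltbr-/- samples above all Ly5.1 samples, for 6 of the 9, against 17% of all tested names. Malat1 was the only member whose fitted difference lay below 0.

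**Figure D1:**
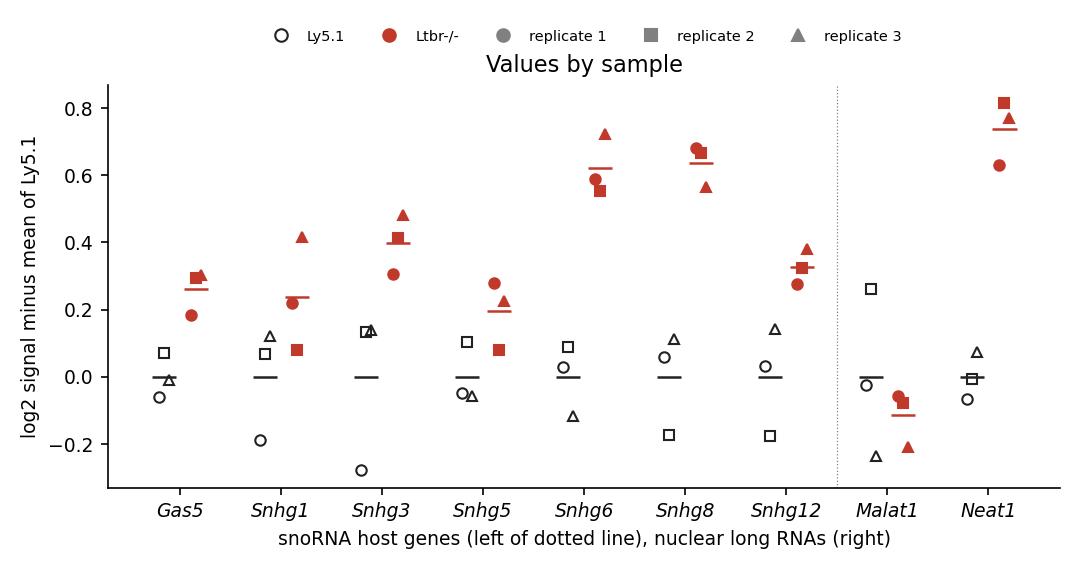
Log2 signal of the 9 noncoding genes in each sample, minus the mean of the 3 Ly5.1 samples of the same gene; open symbols are Ly5.1, filled symbols Ltbr-/-, shapes replicates, and short lines group means. The Ltbr-/- symbols lie above all Ly5.1 symbols in Gas5, Snhg3, Snhg6, Snhg8, Snhg12 and Neat1, and the symbols overlap in Snhg1, Snhg5 and Malat1; with quantile normalization the mean of Gas5 falls to -0.04 and with ribosomal centring all group differences fall below 0.

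Snhg8 and Snhg6 were the host genes with the largest differences. Snhg8, which hosts 1 snoRNA (Snora24), had a signal of 2624, 2593 and 2417 in Ltbr-/- and 1704, 1451 and 1768 in Ly5.1 samples. The lowest Ltbr-/- sample was well above the highest Ly5.1 sample. On the log2 scale the difference was 0.64 (SE 0.085, 1.56-fold with a 95% interval of 1.38 to 1.75; limma adjusted p = 3.15e-07). Snhg6, the host of Snord87, had a signal of 1806, 1763 and 1983 against 1225, 1276 and 1107. Again no Ltbr-/- sample reached down to the Ly5.1 samples, and the log2 difference was 0.62 (SE 0.086, 1.54-fold, 1.36 to 1.74; limma adjusted p = 6.555e-07). Both intervals include folds under 1.5: without Ltbr-/- replicate 3 or Ly5.1 replicate 3 the log2 difference of Snhg6 was 0.57 or 0.56, and without Ly5.1 replicate 2 that of Snhg8 was 0.55, all under 1.5-fold with adjusted p still under 0.05. For these and every other gene without overlap the exact two-sided permutation test gave p = 0.1, the smallest that 3 against 3 samples allow.

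In 3 further hosts the groups did not overlap and the adjusted p was under 0.05, but the fold was below 1.5. Gas5, the most abundant of the hosts and the one with the most annotated snoRNA names (9), is known for accumulating in growth-arrested cells. Its signal was 8886, 9594 and 9651 in Ltbr-/- and 7499, 8219 and 7764 in Ly5.1 samples. These groups were set apart by less than the range within the Ltbr-/- group, and the log2 difference was 0.26 (SE 0.067, 1.198-fold; limma adjusted p = 0.00509). Under quantile normalization of the 6 samples the difference of Gas5 was -0.04, so its direction rests on the scaling used. Snhg12, the host of 4 snoRNAs, had a signal of 1218, 1261 and 1310 against 1029, 891 and 1112. The Ltbr-/- samples lay close together and the Ly5.1 samples were more spread, with a log2 difference of 0.33 (SE 0.091, 1.25-fold; adjusted p = 0.0106). Without Ltbr-/- replicate 3 or Ly5.1 replicate 2 its adjusted p was 0.0642 or 0.0997 (limma).

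Snhg3, the host of Snora73a and Snora73b, was the lowest of the 9 genes. Its signal was 431, 464 and 487 in Ltbr-/- and 288, 383 and 385 in Ly5.1 samples. Ly5.1 replicate 1 stood below the other two, which were alike. The log2 difference was 0.40 (SE 0.10, 1.32-fold; adjusted p = 0.00572 in limma), and without Ly5.1 replicate 1 it was 0.26 with an adjusted p of 0.101. Snhg3 overlaps, on the same strand, Rcc1, a nucleotide exchange factor for Ran, and 39.45% of its 76-base windows are also found in antisense in other transcripts, mainly Gm17300; because the counting and its strand setting are not given in the sources used here, its value is uncertain. Rcc1, named after its values were seen, had a log2 difference of -0.14 (SE 0.088, limma adjusted p = 0.309), against 0.40 for Snhg3.

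The groups overlapped for the remaining 2 hosts. Snhg1 hosts 8 snoRNAs. Its signal was 2816, 2559 and 3225 in Ltbr-/- and 2122, 2536 and 2630 in Ly5.1 samples, where Ltbr-/- replicate 2 lay between Ly5.1 replicates 2 and 3 (log2 difference 0.24, SE 0.089, limma adjusted p = 0.0664). Snhg5, with 2 hosted snoRNAs, had a signal of 1456, 1267 and 1402 against 1161, 1290 and 1152. Here Ly5.1 replicate 2 exceeded Ltbr-/- replicate 2, and the log2 difference was 0.20 (SE 0.0875, 95% interval 0.02 to 0.37; limma adjusted p = 0.139). Neither gene passed the test with all samples and the main settings, but Snhg1 depended on the settings and on single samples. With only the upper 25% of all names by mean signal tested, its limma adjusted p was 0.0228. With the replicate number as a block it was 0.0434 in limma. Its log2 difference was 0.14 without Ly5.1 replicate 1 and 0.15 without Ltbr-/- replicate 3, and its limma adjusted p was 0.0311 without Ltbr-/- replicate 2 and 0.0200 without Ly5.1 replicate 3. Exact permutation p was 0.2 for both.

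All 7 hosts thus had a fitted difference above 0, and their median was 0.33 (range 0.20 to 0.64), beside -0.01 over all tested names, of which 46.38% lay above 0. The hosts' median was 0.29 under quantile normalization, where Gas5 fell below 0, and -0.55 when samples were centred on ribosomal protein genes. That centring shifted the median of all tested names to -0.88, and relative to the shifted median each of the 9 genes kept the difference it had without it. The per-sample median of the 7 hosts, each centred on its mean over the 6 samples on the log2 scale, was 0.11, 0.16 and 0.25 in Ltbr-/- and -0.26, -0.07 and -0.14 in Ly5.1 replicates 1 to 3. Every Ltbr-/- sample was thus above every Ly5.1 sample, and Ly5.1 replicate 1 was lowest.

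Neat1 had the largest difference of the 9. Its signal was 10324, 11738 and 11382 in Ltbr-/- and 6372, 6643 and 7028 in Ly5.1 samples. The lowest Ltbr-/- sample exceeded the highest Ly5.1 sample by more than the range within either group. The log2 difference was 0.74 (SE 0.068, 1.67-fold with a 95% interval of 1.52 to 1.83; limma adjusted p = 5.78e-11), and it stayed between 0.70 and 0.79 and called with any 1 sample left out. Under quantile normalization it was 0.44, with an adjusted p of 2.48e-06 in limma and a fold below 1.5.

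Malat1, which ranked 13 of all names by mean signal, showed no such pattern. Its signal was 42991, 42409 and 38758 in Ltbr-/- and 43990, 53641 and 38013 in Ly5.1 samples. The Ly5.1 samples alone spanned a wider range than the Ltbr-/- samples, with Ly5.1 replicate 2 highest and Ly5.1 replicate 3 lowest of all 6. The log2 difference was -0.11 (SE 0.069; limma adjusted p = 0.288), and its 95% interval as a fold, 0.838 to 1.02, leaves room for a small change in either direction. When single samples were left out, its sign changed only without Ly5.1 replicate 2 (0.02). Its size also depended on Ly5.1 replicate 3, without which it was -0.23 with a limma adjusted p of 0.00122. Quantile normalization turned it into a called lower gene (-0.64; limma adjusted p = 5.53e-08), a setting under which 28 of all tested names were called lower and 261 higher, against 8 and 356 otherwise.

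With the signal as deposited, the 2 nuclear RNAs therefore differed from each other more than either differed from any host. Under quantile normalization Malat1 (-0.64) lay further from Snhg6 (0.59) than from Neat1 (0.44). Malat1 and Neat1 are neighbours on chromosome 19, both on the minus strand, with 22035 bases between them. Malat1 lies at chr19:5795690-5802672 and Neat1 at chr19:5824708-5845480. Within each sample, log2 Neat1 minus log2 Malat1 was -2.06, -1.85 and -1.77 in Ltbr-/- and -2.79, -3.01 and -2.44 in Ly5.1 samples. No scaling by a constant per sample can alter this ratio, and every Ltbr-/- sample was above every Ly5.1 sample (difference 0.85, exact permutation p = 0.1). The library kit selects polyadenylated RNA, and the mature end of Malat1 and of the long form of Neat1 carries no added poly(A) tail; the forms of Neat1 were not told apart, since the files give 1 value per gene.

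Set against the hosts, with the signal as deposited, the nuclear RNAs lay on both sides of them. Neat1 (0.74) was above the highest host (Snhg8, 0.64), and Malat1 (-0.11) was below the lowest (Snhg5, 0.20). The mean log2 difference of Malat1 and Neat1 was 0.31, beside a hosts' median of 0.33. Under quantile normalization the values were -0.10 and 0.29. There Neat1 (0.44) lay below Snhg6 and Snhg8 (0.59 each), and Malat1 (-0.64) was still below all hosts. When centred on ribosomal protein genes, which lowers every gene by the same amount, the mean and the hosts' median were -0.56 and -0.55. With 2 nuclear genes of opposite sign, no difference between the classes was shown.

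**Figure D2:**
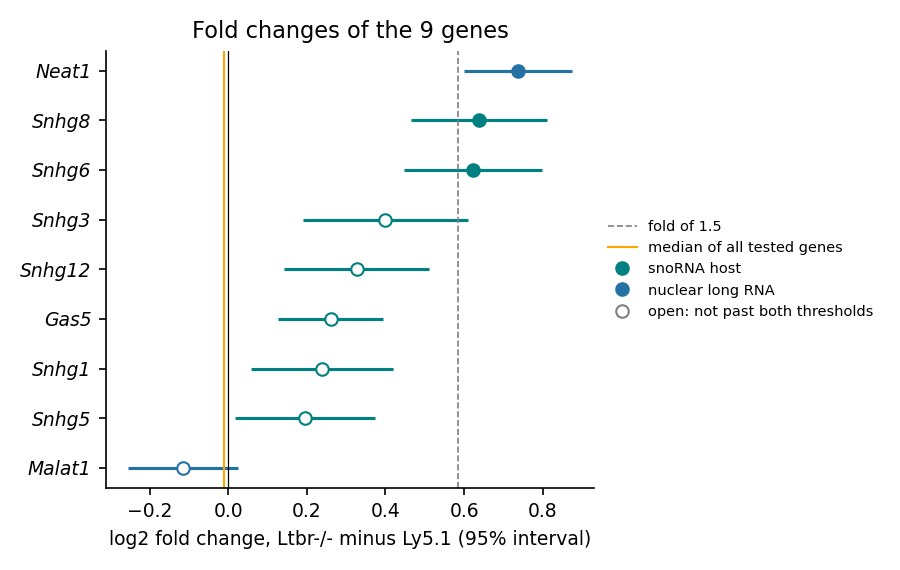
Log2 difference (Ltbr-/- minus Ly5.1) of the 9 genes; points are the limma estimates, bars their 95% intervals, filled points passed both thresholds, the dashed line is a fold of 1.5 and the orange line the median of all tested names. Neat1, Snhg8 and Snhg6 lie beyond the dashed line, and the interval of Malat1 (-0.25 to 0.03) includes 0; ribosomal centring would shift all points and the orange line down by 0.87, and quantile normalization puts Gas5 at -0.04.

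Levels can be set side by side per kb of the longest annotated transcript (GENCODE M21), as deposited signal per kb. The order below depends on that choice of length. Annotated transcripts span 346 to 2556 bases in Gas5, 312 to 2728 in Snhg1, 485 to 6983 in Malat1 and 711 to 20771 in Neat1. The forms present were not determined. In Ly5.1 samples Malat1 was highest, at 6475 ± 1129 (SD, n = 3), followed by Gas5 at 3062 ± 142, Snhg8 at 2115 ± 216 and Snhg6 at 1474 ± 106. These first 4 did not overlap in their order. Snhg5 (983.5 ± 63.0) and Snhg1 (890.5 ± 99.3) overlapped, as did Snhg12 (657 ± 72.4) and Snhg3 (606 ± 95.02). Neat1 came last at 322 ± 15.9, a place that rests on dividing by its longest transcript of 20771 bases. In Ltbr-/- samples Snhg8 (3279 ± 144) came nearer to Gas5 (3669 ± 167), and the order was otherwise the same.

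**Figure D3:**
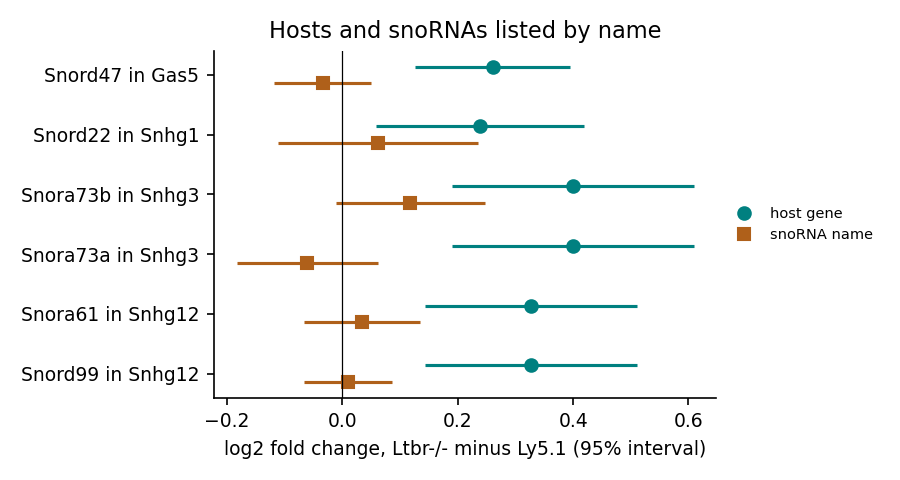
Log2 difference (Ltbr-/- minus Ly5.1) with 95% intervals of each of the 6 tested snoRNA names (squares) and of its host (circles, repeated for hosts with more than 1 name). The snoRNA names lie between -0.06 and 0.12 and their hosts between 0.24 and 0.40, with Gas5 at -0.04 under quantile normalization.

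The snoRNAs themselves were barely covered. Of the annotated snoRNA names within the hosts, 9 lie in Gas5, 8 in Snhg1, 4 in Snhg12, 2 each in Snhg3 and Snhg5, and 1 each in Snhg6 and Snhg8. In the files 11 of these names had a value, 6 were high enough to be tested, and none was called by limma or had an unadjusted p under 0.05. Snora73b, in Snhg3, had 59.2 ± 0.937 in Ltbr-/- and 54.6 ± 2.80 in Ly5.1 samples (log2 difference 0.12, limma adjusted p = 0.233). Snord22, in Snhg1, had 124 ± 11.5 and 119 ± 5.08 (0.06, adjusted p = 0.695). Snord47, in Gas5, had 19.4 ± 0.638 and 19.9 ± 1.17 (-0.03, adjusted p = 0.649). Regularized log values draw such low genes together, and the library protocol does not select short RNAs without a poly(A) tail, so these values do not measure the mature snoRNAs. Snora24, the snoRNA of Snhg8, was listed at 1 in every sample.

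The nearest tested genes on each side were taken as neighbours at any distance, so some lie far from their member. Snhg1 is separated by 117 bases from Slc3a2, the heavy chain of an amino acid transporter, which is transcribed in the other direction. Slc3a2 had 6132, 6597 and 6706 in Ltbr-/- and 3664, 3519 and 4215 in Ly5.1 samples, without overlap (log2 difference 0.77, 1.71-fold, limma adjusted p = 2.83e-10). Snhg1 did not pass the test with the main settings. Gas5 overlaps one end of Zbtb37, whose log2 difference was 0.03 (SE 0.063; limma adjusted p = 0.816). On the far side of Neat1 from Malat1, Frmd8 had -0.18 (SE 0.093; limma adjusted p = 0.216). Around Snhg6, Cops5, 80481 bases away, was higher by 0.26 (limma adjusted p = 0.0406), and Sgk3, 39454 bases away, had -0.22 (adjusted p = 0.196). The nearest tested genes to Snhg8, Mettl14 and Camk2d, had -0.19 and -0.10 but lie 121561 and 3087150 bases away. Those of Snhg5, Syncrip and Zfp949, 38460 and 25122 bases away, had -0.16 and 0.12. Of the protein-coding neighbours named here, Slc3a2 was the only one called. Snhg12 and Snhg3 lie on chromosome 4 within 40908 bases of each other, on opposite strands.

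The other genes of these pathways were described by lists. Among 11 further noncoding snoRNA hosts that were tested, 4 were called higher and 7 were higher by adjusted p alone, none lower, and 10 lay above 0; the median was 0.43, which stayed above the median of all names under each scaling. Zfas1 (listed as 1500012F01Rik), a host of C/D box snoRNAs, was highest at 4492 ± 262 in Ltbr-/- and 2558 ± 228 in Ly5.1 samples (0.81, limma adjusted p = 2.63e-10). Epb41l4aos (2410004N09Rik) followed at 1594 ± 127 and 925 ± 86.9 (0.79), then Snhg20 (2810008D09Rik) at 902 ± 60.1 and 549.5 ± 101 (0.73), both with limma adjusted p under 0.05. With the 7 members, 17 of 18 noncoding hosts lay above 0, 12 were higher by adjusted p and 6 were called. Over all tested names, 46.38% lay above 0, 10.6% were higher by adjusted p and 2.72% were called higher. Among the tested names of highest mean signal, as grouped above, 22.6% were higher by adjusted p and 8.76% were called higher.

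Of 31 protein-coding snoRNA hosts, 20 were called higher, none lower, with a median of 0.71; under quantile normalization 7 were called higher and the median was 0.36. Of the 31, 20 are ribosomal protein genes, and all of these but Rpl3 and Rps2 were called. The hosts that are not ribosomal protein genes ranged from -0.23 (Nap1l4) to 0.95 (Gnb2l1). Of these, only Eef1b2 (0.77) and Gnb2l1 were called. Rpl27a, of the large subunit, had 20752 ± 1203 in Ltbr-/- and 10346 ± 828 in Ly5.1 samples (1.01 on the log2 scale), and the ribosome-bound scaffold Gnb2l1 and Rpl32 were higher by 0.95 and 0.94. Nap1l4, a histone chaperone, was lower by adjusted p alone (-0.23, limma adjusted p = 0.0446). A list of 17 mRNAs with a known TOP tract, without ribosomal protein genes, shares 4 genes with these hosts: Eef1b2, Eef2, Tpt1 and Gnb2l1. Of the 17, 6 were called higher, Eef1b2 and Gnb2l1 among them, and 15 were higher by adjusted p. Their median was 0.53 (3 called and a median of 0.32 under quantile normalization). Eef1g, a subunit of elongation factor 1, had 29728 ± 1191 and 14884 ± 736 (0.998), and the initiation factor subunit Eif3f was higher by 0.99. Of the 79 ribosomal protein genes, 72 were called higher, with a median of 0.81 (34 called and a median of 0.55 under quantile normalization), and 67 lay above the highest host member, 77 above the hosts' median and 54 above Neat1. Fau and Rpl13 were among those with the largest differences (1.071 and 1.019). All 7 hosts lay below the median of the ribosomal protein genes. Under quantile normalization 5 of the 7 did, Snhg6 and Snhg8 (0.59 each) lay above it, and 33 of the 79 lay above the highest host, 69 above the hosts' median and 52 above Neat1. Per sample, the centred median of the 79 was 0.36, 0.40 and 0.46 in Ltbr-/- and -0.48, -0.46 and -0.28 in Ly5.1 replicates 1 to 3.

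**Figure D4:**
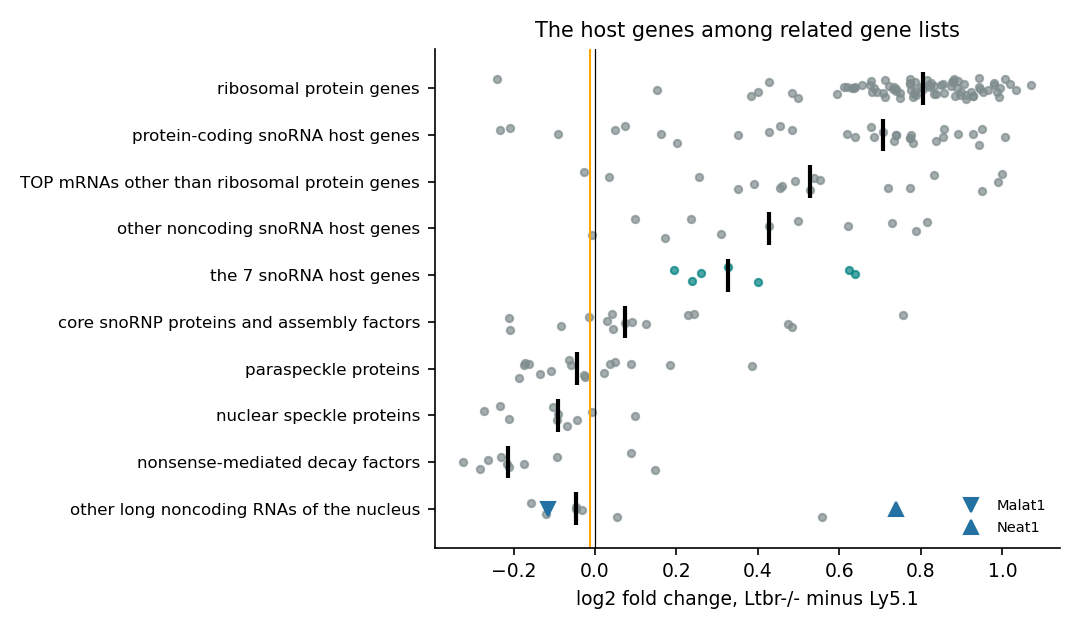
Log2 difference (Ltbr-/- minus Ly5.1) of every tested gene of each list as points, with Malat1 and Neat1 as triangles in the bottom line; black bars are list medians and the orange line is the median of all 13108 tested names. Ribosomal protein genes have a median of 0.81, the 7 snoRNA hosts 0.33 and paraspeckle proteins -0.04; ribosomal centring moves every point and the orange line down by 0.87.

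The proteins that work with these RNAs were described in the same way. Of 15 core snoRNP proteins and assembly factors, 1 was called, Nhp2 of the H/ACA particle, with 2368 ± 97.4 in Ltbr-/- and 1402 ± 85.3 in Ly5.1 samples (0.76, limma adjusted p = 3.74e-09). Nop10 (0.47) and Ruvbl2 (0.48) were higher by adjusted p alone, and the list's median was 0.07. Of 16 paraspeckle proteins, the partners of Neat1, none was called in limma (unadjusted p under 0.05 for 1 higher and 3 lower) and 1 was higher by adjusted p: Nudt21, a subunit of the cleavage factor that sets polyadenylation sites, at 383.5 ± 23.2 and 293 ± 17.1 (0.39, limma adjusted p = 0.00321). Their median was -0.04, beside 0.74 for Neat1. Of 10 nuclear speckle proteins none was called in limma and 3 were lower by adjusted p as well as by unadjusted p, Srsf2 (-0.27), Srsf6 (-0.23) and Son (-0.21), with a median of -0.09. Of 10 factors of nonsense-mediated decay none was called in limma, 6 were lower at an unadjusted p under 0.05 (11.4% of all tested names) and 3 by adjusted p, namely the kinase Smg1 (-0.32), the helicase Upf1 (-0.28) and the nuclease Smg6 (-0.26), with a median of -0.21 beside -0.01 for all names. Of all tested names, 4.18% were lower by adjusted p. Of 7 other nuclear long noncoding RNAs none was called in limma, 1 was higher by adjusted and unadjusted p, Pvt1 (548 ± 47.4 and 373 ± 41.2; 0.56, limma adjusted p = 4.91e-05), and 5 lay below 0. At 1.47-fold Pvt1 was just short of the call, and it was called without Ltbr-/- replicate 1, Ltbr-/- replicate 3 or Ly5.1 replicate 2 (0.60, 0.59 and 0.63).

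Across the 6 samples, the genes whose centred log2 profile lay closest to Neat1 by root mean square difference were Krtcap2 (0.0245), Rps7 (0.0329) and Rps27l (0.0334). All 3 were called higher, at 0.70, 0.79 and 0.70 on the log2 scale. Closest to Gas5 were Grn (0.0137), Prpsap1 (0.0199) and Nrbp2 (0.0234), with log2 differences of 0.27, 0.26 and 0.29. Closest to Malat1 were Thoc2 (0.0380), Rapgef6 (0.0426) and Ccdc82 (0.0480), none of which passed the test. These are descriptions over 6 samples that share their 2 groups.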

How the data were processed

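Poly(A)-selected stranded libraries from sorted LT/ST-HSCs were sequenced by the authors, assembled with SeqMan NGen and quantified with ArrayStar. The deposited signal was taken to hold regularized log values (Bioconductor) as powers of 2 (DESeq2 and GRCm38/mm10 per the submitters' processing notes). Counter settings, strand setting and annotation are not given in the sources used here. The paper gives the average number of reads per sample but not the read depth of each sample. Here log2 of that signal was fitted across the upper 50% of names by mean (13108) by limma 3.58.1 in R 4.3.3 (lmFit, then eBayes allowing an intensity trend), 3 Ltbr-/- against 3 Ly5.1 samples from the labels, with Benjamini-Hochberg adjustment. Genes were called at a fold of 1.5 or more with adjusted p below 0.05. Nothing in the labels says how far replicates were prepared independently, so p-values measure the spread between these samples. Single genes also had an exact permutation test.

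Members and lists were chosen with earlier results of these data known. Named genes were the 9 members, Ltbr, in each other list the 3 called genes with the largest change (else the 1 largest change), 3 nearest profiles and the nearest tested genes on each side; Rcc1 and other genes named within a count were chosen after their values were seen. Of 235 list symbols, 14 were matched by RefSeq synonym and Snhg14 not at all. Positions came from RefSeq (GRCm38.p6) and transcripts from GENCODE M21. The fit was tested on simulated data, and 18 alternatives were run. A few genes that this rule covers are not reported here.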

Additional observations from a re-analysis of the deposited data

How the results depend on the processing

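Leaving out each sample in turn gave 1 to 2 called hosts (2 with all samples), a hosts' median of 0.262 to 0.398 and a Malat1 difference of -0.23 to 0.016 on the log2 scale. The number of called hosts was 1 without Ltbr-/- replicate 3, Ly5.1 replicate 2 or Ly5.1 replicate 3 and also without variance moderation, 5 with no fold threshold and 0 at a fold of at least 2, where Neat1 was also lost (0 of 2 nuclear RNAs called) and 42 of all tested names were called instead of 364. With no fold threshold 1936 of all names were called. Without variance moderation (t-test), adjusted p was 0.0543 for Snhg8, 0.0998 for Gas5, 0.179 for Snhg12 and 0.237 for Snhg3. In the same t-test Snhg6 (adjusted p = 0.0409) and Neat1 (0.0277) stayed called. Quantile normalization gave -0.098 for the mean of Malat1 and Neat1 and -0.038 for Gas5. Centring on ribosomal protein genes called 11991 names, all lower, and gave -0.546 for the hosts' median and -0.561 for the mean of Malat1 and Neat1. Under it the differences were -0.612 for Gas5, -0.634 for Snhg1, -0.473 for Snhg3, -0.677 for Snhg5, -0.25 for Snhg6, -0.235 for Snhg8, -0.546 for Snhg12 and -0.135 for Neat1. For genes of the lists they were -0.059 for Zfas1 (1500012F01Rik), -0.086 for Epb41l4aos, -0.143 for Snhg20, -0.115 for Nhp2, -0.487 for Nudt21, -0.314 for Pvt1, -0.256 for Cd79a and -0.04 for Emr1. For the nearest profiles they were -0.6 for Grn, -0.617 for Prpsap1, -0.581 for Nrbp2, -0.174 for Krtcap2, -0.087 for Rps7 and -0.169 for Rps27l. The centring by construction lowers every gene by 0.873 and leaves each difference relative to other genes as it was; the cause of the other changes was not tested.

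The replicate numbers showed no clear pairing of the samples: deviations of same-numbered samples correlated at 0.0314, -0.0052 and 0.0899. With 3 samples per group this cannot show whether same-numbered samples came from the same chimeras. With the replicate number as a block, 364 names were called, as without it, with 2 hosts and Neat1 among the members; the limma adjusted p of Snhg1 was 0.0434 with the block. Not every sample correlated best with its own number. The read depth of each sample is not given and regularized log values shrink low genes, which limits Snhg3 and the snoRNA names most. With 3 samples per group all members are limited.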
